A study of Mus musculus with 7 samples.

Results

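This section describes 10 genes of fibroblast growth factor (FGF) and ERK signalling in retinal pigment epithelium (RPE). RPE of mice bred to lose Dicer1 in pigment cells was compared with control RPE. The genes are Fgf11, Fgfr4, Egfr, Frs2, Nf1, Spred2, Dusp6, Etv1, Etv4 and Etv5. They are 10 of the 5017 genes in the deposited table. Of these, 4918 lie on chromosomes 1, 10, 11, 12 and 13, so the table covers only part of the genome. Below, a gene is called measured if it is in that table, and shares of all genes are shares of these 5017. The genes were taken by name: every probe set to which the array's annotation gives 1 gene symbol, that symbol being one of the 10, was used, which made 160 of 53644 probe sets. A probe set is a small group of array probes that reads roughly 1 exon, and its value is a log2 signal, on which a difference of 1 is a doubling. A further 2 probe sets that name one of these genes together with another gene were not used.

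The study measured messenger RNA in RPE, the pigmented epithelium on which photoreceptors depend, taken from mouse eyes at postnatal day 5. There were 7 Affymetrix arrays in 2 groups. The 3 Dicer1-deficient arrays came from Dicer1loxP/loxP;Dct-Cre animals. In these, a Cre recombinase driven by the dopachrome tautomerase promoter, active in pigment cells, is meant to recombine both floxed copies of Dicer1. Dicer1 encodes the enzyme that makes mature microRNAs from their precursors. The 4 control arrays are labelled control RPE, and their own genotype is not stated. Both groups were offspring of Dicer1 flox/+ mice carrying Dct cre that were bred to flox/flox partners, so every pup has at least 1 floxed copy, and whether the controls carry Cre or a second floxed copy is not stated. The labels do not say whether an array holds the RNA of 1 animal or of several.

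FGFs bind receptor tyrosine kinases at the cell surface, the docking protein FRS2 couples the receptor to Ras, and Ras switches on the RAF, MEK and ERK kinases. ERK then raises the transcription of its own brakes, such as the ERK phosphatase DUSP6, and of the ETS transcription factors ETV1, ETV4 and ETV5, so that the RNA of these genes is widely used as a readout of the pathway. In the embryonic eye, FGF signalling favours neural retina over RPE, and embryonic RPE exposed to FGF can turn into retina.

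Fgf11 and the 1 probe set annotated as Etv5 fell in Dicer1-deficient RPE. The other 8 genes did not pass the test over all 5017 genes. The number of the Etv5 probe set lies among genes of chromosome 10, whereas Etv5 is on chromosome 16, and what it measures was not tested. The fold was 1.81-fold lower for Etv5 and 1.62-fold lower for Fgf11. Dusp6 lay 1.33-fold lower, in arrays that did not overlap between the groups, without passing the test. It passed when 1 control array, control 4, was left out. Frs2 and Fgfr4 were the 2 genes with a fold change above 0, and neither passed.

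Of all genes tested, 2.33% were called in either direction and 0.917% were called lower. These genes contributed 2 calls in 10, both lower, and 10 genes are few to set against that share. Arrays of the groups did not overlap for 3 of the 10 genes and for 16.3% of all genes. A fold change below 0 was found for 8 of the 10 genes, with a median of -0.12, and for 51.9% of all genes, with a median of -0.01.

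Control 4 stood apart from the other arrays. Its median log2 signal was 6.05, against 6.22 to 6.26 in the Dicer1-deficient arrays and 6.25 to 6.26 in controls 1 to 3. Across all probe sets it correlated with the other 6 arrays at 0.942 to 0.951, where pairs of Dicer1-deficient arrays reached 0.980 to 0.984 and pairs of controls 1 to 3 reached 0.986 to 0.988. It had the lowest of the 7 signals at 45 of the 160 probe sets (28.1%) and the highest at 42 (26.25%). Over all probe sets these shares were 31.8% and 26.2%. The 10 genes are therefore plotted with and without it. The targeted gene did not separate the groups at its brightest probe set, which read 10.53, 10.71 and 10.47 in Dicer1-deficient arrays and 10.27, 10.65, 10.69 and 10.88 in controls. Which exons are floxed is not stated, and a signal from exons that remain after recombination does not test the genotype.

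The regulatory sequence in front of the 3 genes whose arrays did not overlap between the groups, Dusp6, Etv5 and Fgf11, is shown because ETV1, ETV4 and ETV5 bind DNA through the ETS domain, which recognises the core GGAA. Each is the 250 bases before a transcription start in the RefSeq promoter table, build GRCm38.p6, written in the direction of the gene, with every GGAA and its reverse complement TTCC in capitals. Dusp6 is on the plus strand at chr10:99262981-99263230, Fgf11 on the minus strand at chr11:69802281-69802530, and the second of the 2 Etv5 starts on the minus strand at chr16:22438369-22438618.
Dusp6: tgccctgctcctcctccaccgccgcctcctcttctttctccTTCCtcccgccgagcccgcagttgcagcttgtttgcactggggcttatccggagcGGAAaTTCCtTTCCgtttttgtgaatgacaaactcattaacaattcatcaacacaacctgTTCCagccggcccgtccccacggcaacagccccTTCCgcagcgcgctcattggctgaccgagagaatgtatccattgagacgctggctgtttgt
Fgf11: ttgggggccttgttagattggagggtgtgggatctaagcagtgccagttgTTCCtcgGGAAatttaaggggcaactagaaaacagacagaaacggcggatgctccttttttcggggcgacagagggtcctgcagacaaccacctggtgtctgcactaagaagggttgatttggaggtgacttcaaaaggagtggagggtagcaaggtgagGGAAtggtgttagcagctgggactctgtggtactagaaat
Etv5: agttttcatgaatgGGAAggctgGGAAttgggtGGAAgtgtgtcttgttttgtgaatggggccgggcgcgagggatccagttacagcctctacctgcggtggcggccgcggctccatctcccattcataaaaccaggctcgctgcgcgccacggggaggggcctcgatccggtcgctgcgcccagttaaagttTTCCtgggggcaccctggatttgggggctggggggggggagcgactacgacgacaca

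The core GGAA occurred 6 times in the Dusp6 window, 3 times in that of Fgf11 and 4 times at this Etv5 start, counting both strands, and not at the other Etv5 start. It is common: 93.4% of the 32851 promoter windows of this length hold it. The longer form CGGAA, which contains the core and is held by 25.2% of windows on either strand, occurred 3 times in the Dusp6 window and in none of the windows of Fgf11 or Etv5. It lay in front of 6 of the 9 genes in the table, Dusp6, Spred2 (2 times), Frs2 (2 times), Fgfr4, Egfr and Nf1. Neither the AP-1 motif TGANTCA (6.75% of windows) nor the cyclic AMP response element TGACGTCA (1.55%) occurred in any window of the 9 genes, and Etv4 had no entry used here. A match is a string of letters and does not show that a factor binds there. Whether the probe set annotated as Etv5 measures the gene behind the Etv5 windows was not tested.

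**Figure D1:**
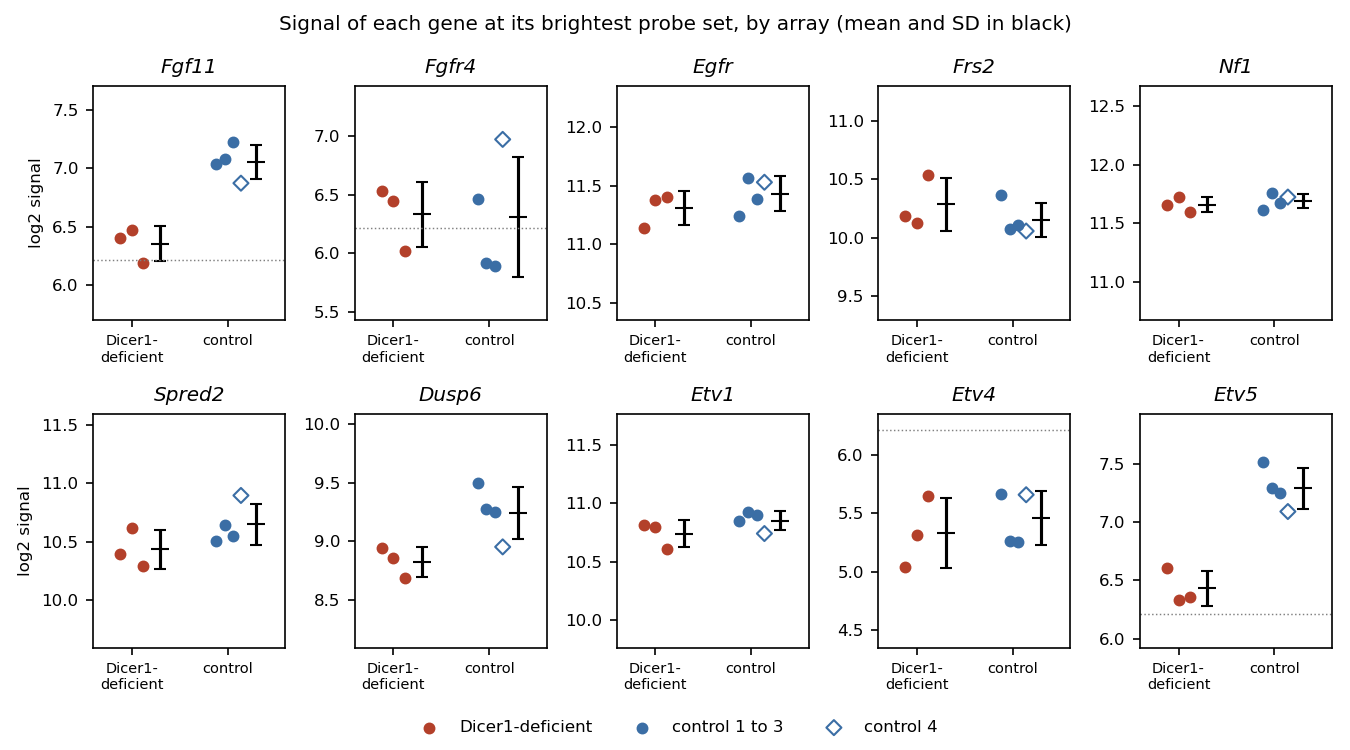
Log2 signal of each of the 10 genes at its brightest probe set, with 1 point per array, Dicer1-deficient arrays in red on the left and controls in blue on the right, control 4 as an open diamond, and the mean and SD in black. All panels span 2 log2 units, and the dotted line marks the median of all probe sets, 6.22. Only Fgf11, Dusp6 and Etv5 have groups that do not overlap, and for Dusp6 control 4, at 8.95, lies just above the highest Dicer1-deficient array, at 8.94.

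Fgf11, grouped here with the FGF ligands by name only, fell. Fgf11 encodes an FGF homologous factor, a member of the family that stays inside the cell and binds voltage-gated sodium channels and is not a secreted ligand of the FGF receptors. At its brightest probe set it read 6.41, 6.47 and 6.19 in Dicer1-deficient arrays, against 7.04, 7.08, 7.22 and 6.87 in controls. All Dicer1-deficient arrays were below all controls, with a gap wider than the spread within either group. The group means were 6.36 ± 0.15 (SD, n = 3) in Dicer1-deficient and 7.05 ± 0.14 (SD, n = 4) in control arrays, a log2 fold change of -0.70 (SE 0.12, limma adjusted p = 0.0294 by Benjamini-Hochberg over 5017 genes). Without control 4 it was -0.76 (limma adjusted p = 0.0116). The deposited table gives no background level, and signals below the median of all probe sets, 6.22, were not taken as above background; the Dicer1-deficient signals of Fgf11 lay near it.

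The difference in Fgf11 was widest at its first probe sets by number. Its 9 probe sets, 10387639 to 10387647, all had fold changes below 0, with a median of -0.24. The first 2 were -0.70 and -0.81, and the second read 5.15, 5.22 and 5.91 in Dicer1-deficient and 6.19, 6.45, 6.09 and 6.22 in control arrays. These are the 2 probe sets of the gene at which the groups did not overlap, against 14% of all probe sets. Among the last 4 probe sets none was beyond -0.24, and all 4 averaged below the median of all probe sets, as did every Fgf11 probe set other than the first. Fgf11 was therefore not shown to be well expressed beyond its first probe set. Fgf11 also passed as the mean of its 9 probe sets, with a smaller difference of -0.33 (limma adjusted p = 0.0389). On their median it did not (-0.20, limma adjusted p = 0.625).

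**Figure D2:**
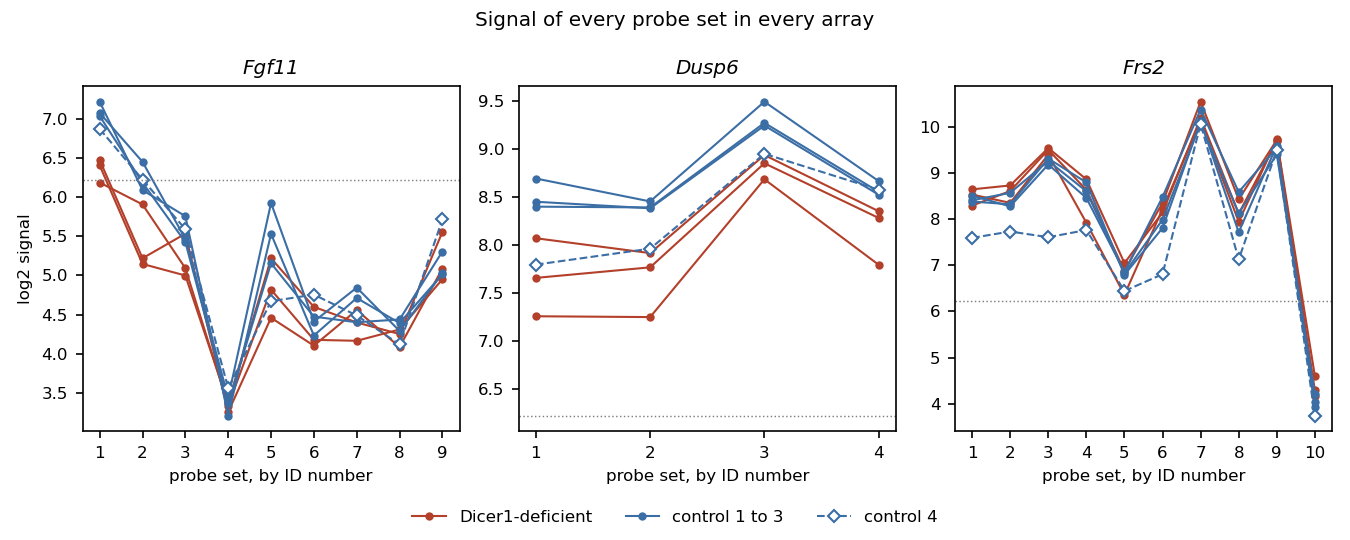
Log2 signal of every probe set of Fgf11, Dusp6 and Frs2 in every array, with probe sets ordered by their ID number on the x axis, Dicer1-deficient arrays in red, controls 1 to 3 in solid blue, control 4 as a dashed line with open diamonds, and the median of all probe sets, 6.22, dotted. The Dicer1-deficient lines of Dusp6 run below those of controls 1 to 3 at all 4 probe sets, and those of Fgf11 at the first 2. The share of all probe sets that separate in this way without control 4 was not computed. With control 4 the groups do not overlap at 3 Dusp6 and 2 Fgf11 probe sets, against 14% of all probe sets. Control 4 drops to 7.61 at the third probe set of Frs2, where the other arrays read 9.18 to 9.53.

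Of 7 genes listed as FGF receptors and co-receptors only 1, Fgfr4, was measured, so the others were not tested. Neither Fgfr4 nor Egfr passed. Fgfr4, an FGF receptor, read 6.53, 6.45 and 6.02 in Dicer1-deficient and 6.46, 5.92, 5.89 and 6.97 in control arrays at its brightest probe set, with overlapping groups. Its log2 fold change was 0.02, with a 95% interval from -0.62 to 0.67 (limma adjusted p = 0.988), the widest interval of the 10 genes, and 0.24 without control 4. Only 3 of its 18 probe sets averaged above the median signal, so Fgfr4 was not shown to be well expressed. Groups did not overlap at 1 of its 18 probe sets, where 14% of all probe sets did not overlap. That probe set, its second, 10405382, read 6.07, 5.84 and 5.91 in Dicer1-deficient and 6.46, 6.49, 6.58 and 6.51 in control arrays. That difference, -0.57 (SE 0.12), did not pass over all probe sets (limma adjusted p = 0.0814), and the other 17 ranged from -0.52 to 0.37.

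Egfr, the epidermal growth factor receptor, which feeds the same Ras and ERK kinases, was bright and lay slightly lower along nearly its whole length. Where it was brightest it read 11.14, 11.38 and 11.40 in Dicer1-deficient and 11.24, 11.57, 11.39 and 11.53 in control arrays, a log2 fold change of -0.12 (95% interval -0.41 to 0.16, limma adjusted p = 0.781). Of its 33 probe sets, 32 had a fold change below 0, with a median of -0.22. The exception, 10374384, at 0.23, had a control 4 signal of 4.96 where the other 6 arrays read 6.05 to 6.64. Without control 4 all 33 were below 0, with a median of -0.28. On the mean of the 33 probe sets the log2 fold change was -0.22 (SE 0.10, limma adjusted p = 0.296), and without control 4 it was -0.28 and passed (SE 0.07, limma adjusted p = 0.0309), in a fit that called 17% of all genes. Probe sets of 1 gene share the same RNA and are not replicates, so their number adds no independent support.

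Frs2, the docking protein that links FGF receptors to Ras, was the one gene whose probe sets all lay above 0. It read 10.19, 10.12 and 10.54 in Dicer1-deficient and 10.37, 10.07, 10.11 and 10.06 in control arrays where it was brightest, and its log2 fold change was 0.13 (95% interval -0.19 to 0.45, limma adjusted p = 0.797). Its 10 probe sets ranged from 0.03 to 0.64, with a median of 0.27. Control 4 was the lowest of the 7 arrays at 8 of them. The largest difference, at 10372621, had 9.53, 9.39 and 9.50 in Dicer1-deficient arrays, against 9.18, 9.26 and 9.31 in controls 1 to 3 and 7.61 in control 4. Without control 4 that difference was 0.23, the median over probe sets was 0.12, and 2 of the 10 fell below 0.

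Nf1 and Spred2 act together on Ras: neurofibromin, the product of Nf1, switches Ras off, and SPRED proteins bring it to the membrane. Nf1 had the narrowest interval of the 10 genes, with 11.66, 11.72 and 11.59 in Dicer1-deficient and 11.62, 11.76, 11.67 and 11.72 in control arrays. Its log2 fold change was -0.03 (95% interval -0.24 to 0.18, limma adjusted p = 0.953), which leaves out a change as large as that of Fgf11 or Etv5. Its 58 probe sets had a median fold change of -0.06, with 39 below 0, and ranged from -0.64 at 10379293 to 0.36 at 10379263. The first of these read 5.73, 5.44 and 5.71 in Dicer1-deficient and 6.54, 6.05, 6.59 and 5.90 in control arrays, around the median signal. At the second, control 4 (5.84) lay below all other arrays (6.73 to 7.11).

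Spred2, an inhibitor of Ras to ERK signalling, read 10.39, 10.62 and 10.29 in Dicer1-deficient and 10.50, 10.64, 10.55 and 10.89 in control arrays. Its log2 fold change of -0.21 (95% interval -0.52 to 0.09) did not pass (limma adjusted p = 0.555). Of its 9 probe sets 8 were below 0, and the ninth, 10374457, at 0.35, read 5.86 in control 4 and 7.30 to 7.70 in the other 6 arrays. Without control 4 all 9 were below 0, with a median of -0.22. Averaged over its probe sets the difference was -0.10 (limma adjusted p = 0.875) with control 4 and -0.25 (SE 0.06, limma adjusted p = 0.0203) without it.

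Dusp6, the phosphatase that removes phosphate from ERK in the cytoplasm, lay lower at each of its 4 probe sets. At the brightest it read 8.94, 8.85 and 8.69 in Dicer1-deficient and 9.50, 9.28, 9.25 and 8.95 in control arrays. The groups did not overlap, though the highest Dicer1-deficient array, at 8.94, and control 4, at 8.95, were nearly equal. The means were 8.83 ± 0.13 (SD, n = 3) in Dicer1-deficient and 9.24 ± 0.22 (SD, n = 4) in control arrays, a log2 fold change of -0.42 (SE 0.14, 95% interval -0.75 to -0.09, limma adjusted p = 0.227). Without control 4 it was -0.51 (SE 0.11) and passed (limma adjusted p = 0.0431), in a fit that called 5.18% of all genes.

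The other Dusp6 probe sets gave fold changes of -0.67, -0.66 and -0.44. The first, 10366044, read 8.07, 7.66 and 7.26 in Dicer1-deficient and 8.69, 8.40, 8.45 and 7.79 in control arrays, with control 4 inside the Dicer1-deficient range. The last, 10366047, read 8.35, 8.28 and 7.79 in Dicer1-deficient and 8.67, 8.56, 8.53 and 8.58 in control arrays, with control 4 among the other controls. Groups did not overlap at 3 of the 4, where 14% of all probe sets did not overlap. Their mean gave -0.55 (SE 0.16, limma adjusted p = 0.0780), and -0.64 without control 4 (SE 0.14, limma adjusted p = 0.0165). Controls 1 to 3 were above all Dicer1-deficient arrays at each of the 4 probe sets. The share of all probe sets that separate in this way without control 4 was not computed, so this is a description only.

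The 3 ETS factors differed. Etv1 was bright and read 10.81, 10.80 and 10.61 in Dicer1-deficient and 10.84, 10.92, 10.90 and 10.74 in control arrays, a log2 fold change of -0.11 (95% interval -0.34 to 0.12, limma adjusted p = 0.751). Its 5 probe sets ranged from -0.63 to 0.31 and none separated the groups. Etv4 read 5.04, 5.31 and 5.65 in Dicer1-deficient and 5.66, 5.26, 5.26 and 5.66 in control arrays. All 13 of its probe sets averaged below the median signal, so it was not shown to be expressed, and its log2 fold change of -0.13 (95% interval -0.54 to 0.29, limma adjusted p = 0.872) says little either way.

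Etv5, read at a probe set whose identity is limited as described below, had the largest change of the 10 genes. Its single probe set, 10363902, read 6.603, 6.34 and 6.35 in Dicer1-deficient and 7.52, 7.29, 7.25 and 7.09 in control arrays. The groups did not overlap, and control 4 was the lowest control. As for Fgf11, the Dicer1-deficient signals lay near the median of all probe sets, 6.22. The means were 6.43 ± 0.15 (SD, n = 3) in Dicer1-deficient and 7.29 ± 0.18 (SD, n = 4) in control arrays, a log2 fold change of -0.86 (SE 0.13, 95% interval -1.16 to -0.55, limma adjusted p = 0.0173), and -0.92 without control 4 (limma adjusted p = 0.00759). It was also the one of the 160 probe sets that passed the fit over all probe sets (limma adjusted p = 0.0445), in which 1.06% of probe sets were called.

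The identity of that probe set has a limit. RefSeq places Etv5 on chromosome 16, whereas the 200 probe sets whose numbers are nearest to 10363902 all belong to genes of chromosome 10. For the other 9 genes 94.5% to 100% of the 200 nearest probe sets lay on the gene's own chromosome. The name Etv5 comes from the platform annotation alone, no other Etv5 probe set was analysed here, and whether this one measures the Etv5 transcript was not tested.

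With 1 array left out at a time, Etv5 kept a log2 fold change between -0.94 and -0.78 and passed in 2 of the 7 fits, without control 1 and without control 4, with limma adjusted p from 0.00759 to 0.0966. Fgf11 lay between -0.76 and -0.61 and passed in 1 of the 7, without control 4, with adjusted p from 0.0116 to 0.135. Dusp6 lay between -0.51 and -0.33, with adjusted p from 0.0431 to 0.558. The direction of these 3 genes was the same in each of the 7 fits.

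**Figure D3:**
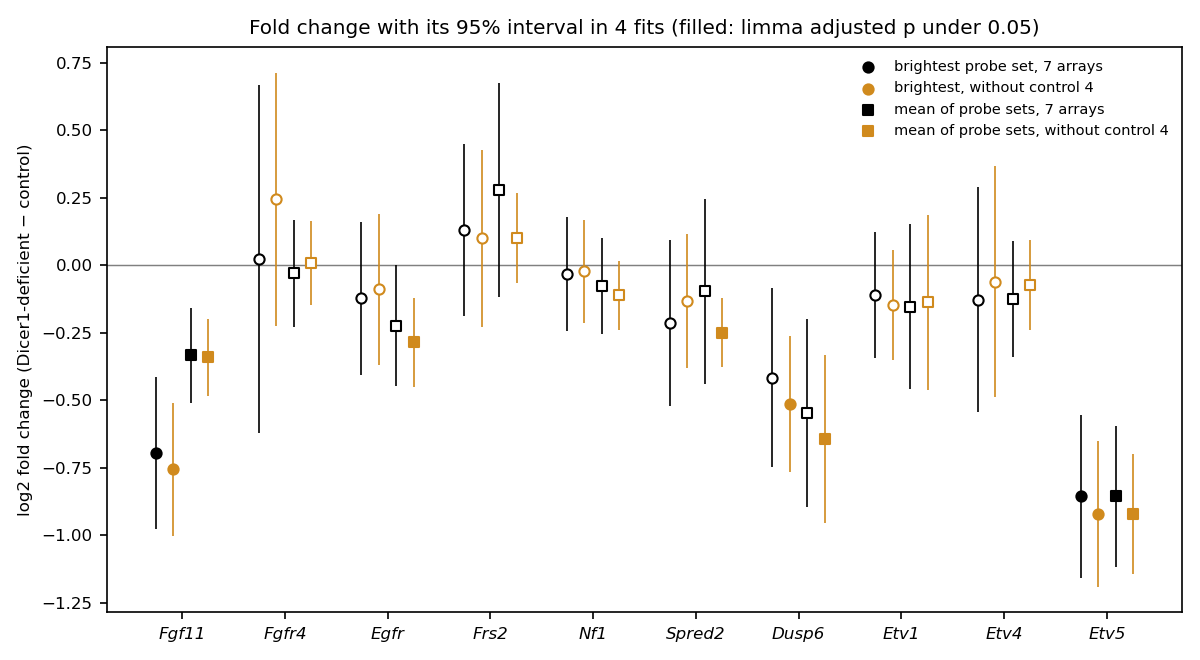
Log2 fold change (Dicer1-deficient minus control) of the 10 genes with 95% intervals in 4 fits: the brightest probe set (circles) or the mean of all probe sets (squares), with all 7 arrays (black) or without control 4 (orange); filled symbols passed limma's adjusted p of 0.05. Etv5 and Fgf11 are filled in all 4 fits, Dusp6 in the 2 without control 4, and Egfr and Spred2 in the mean of probe sets without control 4.

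Over all 160 probe sets 114 were below 0 (71.2%), with a median of -0.11, against 50.3% and a median of -0.0018 for all probe sets. Without control 4 these were 115 (71.9%) and -0.15, against 51.4% and -0.0081. Nf1 supplies 58 and Egfr 33 of the 160, so these shares describe mainly 2 genes. Groups did not overlap at 20 of the 160 probe sets, where 14% of all probe sets did not overlap. Of the 20, 17 were lower, where 6.62% of all probe sets were lower without overlap.

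Whether the probe sets of a gene share 1 fold change was asked with limma's diffSplice, an F test per gene. None of the 9 genes with more than 1 probe set was called, with adjusted p from 0.896 to 1 and none below 0.05 unadjusted, where 1.36% of 4470 genes were called. Fgf11 had the lowest adjusted p. Without control 4 its p was 0.00575 unadjusted and 0.0695 adjusted, and again none of the 9 was called, where 6.8% of all genes were. In simulated data of 4470 genes 20.6% of this test's calls were false, so its calls would need care, and a gene that misses the threshold is not shown to be even.

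**Figure D4:**
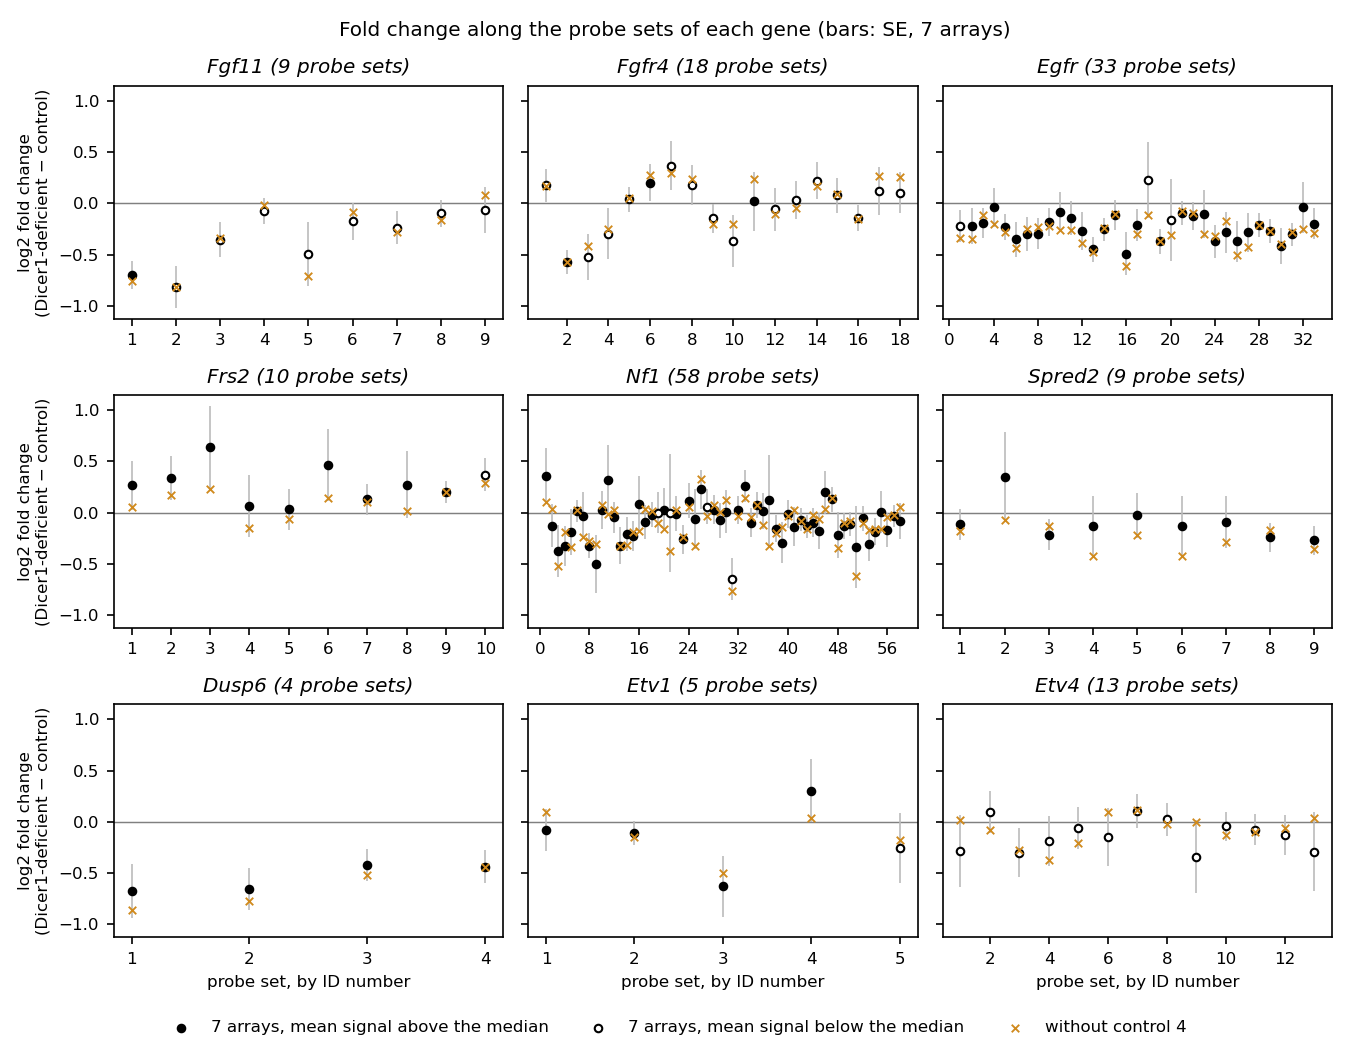
Log2 fold change (Dicer1-deficient minus control) of each probe set of the 9 genes with more than 1, ordered by ID number, with SE bars; filled points average above the median signal of 6.22 over the 7 arrays, open points below it, and orange crosses are the values without control 4. All 4 Dusp6 points and 32 of 33 Egfr points lie below 0, all 10 Frs2 points lie above 0, and crosses sit well apart from points where control 4 read far from the other controls.

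The measured rest of the pathway gave no calls in the same fit. The lists named 140 further ligands, receptors, adaptors, kinases, inhibitors and targets, of which 27 were measured, 24 of them above the median signal. None passed limma in either direction, 5 had an unadjusted p below 0.05 (Dusp10, Erbb3, Flrt2, Mknk2 and Phlda1) where 14.5% of all genes did, and 14 had a fold change below 0, with a median of -0.05. When probe sets were averaged for each gene 4 passed, in a fit that called 5.86% of all genes: Fgf18 and Erbb3 lower, Dusp10 and Mknk2 higher. With control 4 also left out these 4 passed again, and so did Flrt2 (-0.61, limma adjusted p = 0.00279) and Map2k2 (-0.21, limma adjusted p = 0.0300), in the fit that called 17% of all genes.

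Among the inhibitors, Dusp10, a phosphatase that acts mainly on the JNK and p38 kinases, lay opposite to Dusp6. It read 8.64, 8.63 and 8.40 in Dicer1-deficient and 8.23, 7.98, 8.04 and 8.03 in control arrays, a log2 fold change of 0.48 (SE 0.11, limma adjusted p = 0.0755). Averaged over its probe sets it rose by 0.40 (limma adjusted p = 0.0269). Flrt2, a membrane protein that binds FGF receptors, stands in the same list, and whether it acts as an inhibitor was not tested. It lay lower (-0.48, limma adjusted p = 0.163). Dusp3 (-0.05), Dusp14 (0.03) and Lrig3 (0.05) did not pass, and whether Lrig3 acts as an inhibitor was not tested either. Without control 4 Dusp14 stood at 0.21 (limma adjusted p = 0.241). The groups did not overlap for Dusp10 and Flrt2, as for 16.3% of all genes.

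Of the ERK-responsive genes, Phlda1 read 7.82, 7.90 and 7.91 in Dicer1-deficient and 8.11, 8.23, 8.25 and 8.27 in control arrays, a log2 fold change of -0.34 (SE 0.09, limma adjusted p = 0.125). The immediate early gene Fos varied within each group, with 7.07, 8.63 and 4.88 in Dicer1-deficient and 8.87, 6.77, 5.11 and 8.74 in control arrays, and its difference of -0.51 had an SE of 1.12. No statement on Fos can be made from such a spread. Egr2 (-0.32), Elk3 (-0.08), Elk4 (0.02) and Ier5 (0.0017) did not pass, nor did their list contain a call other than Etv5. The value of Ier5 rested on control 4, without which it was -0.22 (limma adjusted p = 0.212).

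Among the ligands, Fgf18, a secreted FGF, depended on which probe sets were read. At its brightest it read 8.23, 8.44 and 8.32 in Dicer1-deficient and 8.20, 8.30, 8.21 and 9.32 in control arrays, with a difference of -0.18 (limma adjusted p = 0.892) that turned to 0.10 without control 4. Averaged over its probe sets it fell by 0.75 (limma adjusted p = 0.00569), and by 0.79 without control 4. Fgf10 (-0.27) and Fgf22 (0.04) were dim and did not pass.

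Of the ErbB receptors, Erbb3, which pairs with ERBB2 to receive neuregulins, read 8.92, 9.28 and 9.31 in Dicer1-deficient and 9.79, 9.79, 9.59 and 9.86 in control arrays (-0.59, SE 0.13, limma adjusted p = 0.0669). Averaged over its probe sets it fell by 0.39 (limma adjusted p = 0.0170). Erbb2 (-0.21) and Erbb4 (0.19) did not pass. Erbb3 is also a marker of melanocytes and Schwann cells.

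The adaptors Shc3 (-0.38), Sos2 (0.16), Shc2 (0.19), Crk (-0.09) and Grb2 (0.09), the Ras regulator Rasal2 (0.21) and the kinase cascade genes Mapk7 (-0.11), Map2k2 (-0.14) and Ksr1 (0.31), a scaffold for RAF, MEK and ERK, did not pass. Mknk2, a kinase that ERK activates, read 10.30, 10.26 and 10.10 in Dicer1-deficient and 9.88, 9.96, 9.88 and 9.91 in control arrays. Its groups did not overlap, as for 16.3% of all genes, and its log2 fold change was 0.31 (SE 0.09, limma adjusted p = 0.164). Averaged over its probe sets it rose by 0.42 (limma adjusted p = 0.0397).

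**Figure D5:**
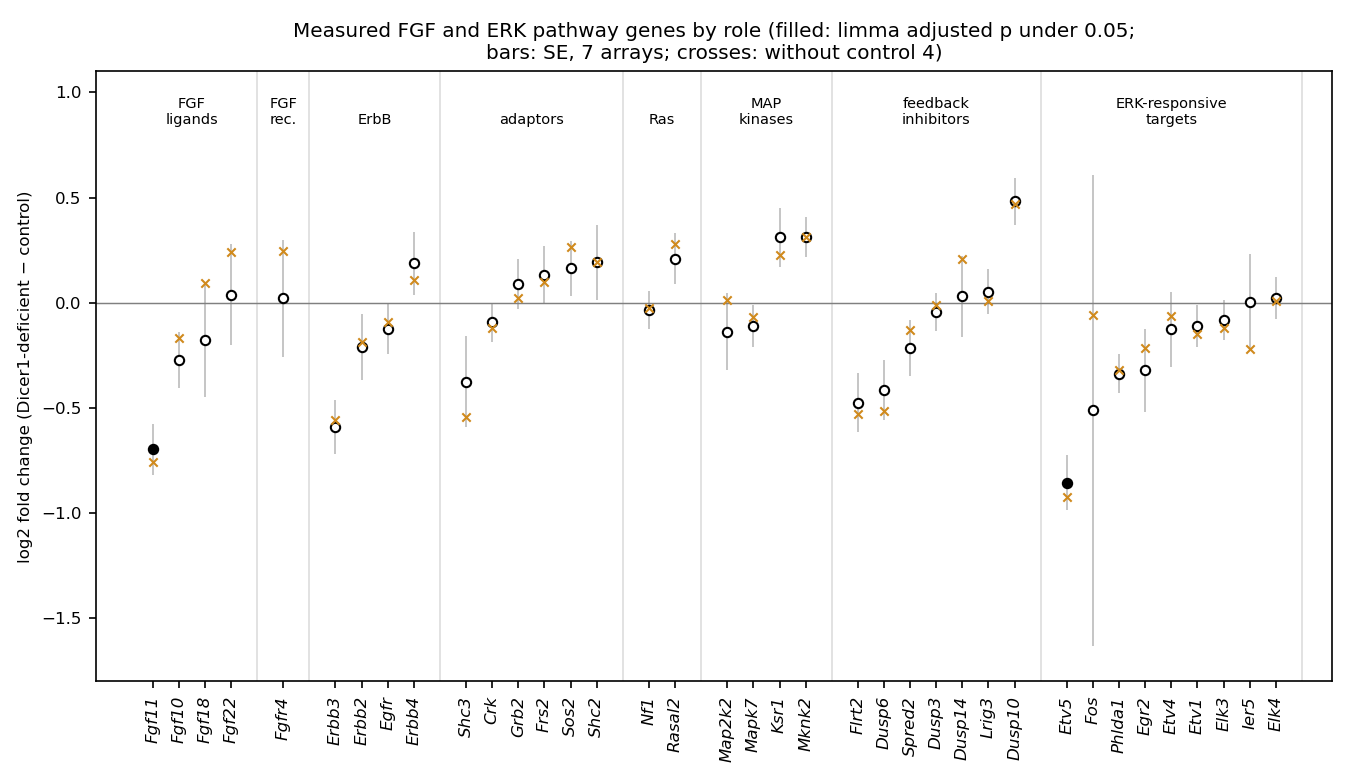
Log2 fold change (Dicer1-deficient minus control) with SE at the brightest probe set of every measured gene of the FGF and ERK lists, grouped by list and ordered by size. Filled points passed limma's adjusted p of 0.05 and orange crosses are values without control 4. Fgf11 stands with the ligands by name only. Fgf11 and Etv5 are the 2 filled points, and the bar of Fos, with an SE of 1.12, is the widest.

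The 3 genes whose signal over the 7 arrays was most like that of Etv5, by Pearson correlation at the brightest probe sets, were Gpx4 (0.993), Tshr (0.985) and Ube2f (0.981). Their own log2 fold changes were -0.44, -3.74 and -0.36. For Fgf11 they were Tfap2a (0.973), Akt1 (0.965) and Mael (0.963), with log2 fold changes of -0.99, -0.20 and -1.10. With 7 arrays in 2 groups, any gene that separates the groups evenly correlates in this way, so these are descriptions only.

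Marker genes of the cells in the dissection were read in the same fit. Over all genes, 51.9% had a fold change below 0 and 2.33% were called. The RPE list had 8 of 22 markers measured, all above the median signal (Pmel, Rdh5, Rdh10, Serpinf1, Mlph, Mreg, Tspan10 and Kcnj13), and its mean was 10.23 to 10.51 in Dicer1-deficient and 10.72 to 11.02 in control arrays. All 8 had a fold change below 0, and 1, Kcnj13, passed. The defining markers Rpe65 and Best1 were not analysed here. The melanocyte and Schwann list (3 of 7 measured) averaged 8.33 to 8.47 in Dicer1-deficient and 8.83 to 9.26 in control arrays. Its 3 genes were Pax3 (-0.90), Erbb3 (-0.59) and Cdh19 (-0.34), all below 0 and none passing. Erbb3 is the pathway gene given above, and the groups overlapped for Cdh19. The fibroblast and sclera list (10 of 12 measured) averaged 10.92 to 11.12 in Dicer1-deficient and 11.30 to 11.44 in control arrays, 9 of them below 0 and 1 passing. It did not move as a whole. Col1a1 (-0.0083), Col3a1 (0.012) and Lum (-0.041) lay near 0, and the largest differences were those of Omd (-0.92), Epyc (-0.74), Fmod (-0.60) and Prelp (-0.50).

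These 3 of the 11 marker lists did not overlap between the groups, all of them lower in the Dicer1-deficient arrays. Single genes did not overlap in 16.3% of cases, and the share for lists of genes was not computed, so this is a description only. The other 8 lists overlapped. The closest of them to separating was that of retinal progenitors (5 of 11 measured), with 7.01 to 7.68 in Dicer1-deficient and 6.44 to 7.02 in control arrays. Of its 5 markers 1 passed, Nr2e1, which was higher by 0.69 (limma adjusted p = 0.0155), and 2 passed without control 4, both higher. Arrays give no true 0, so no marker can be called absent. In dissected tissue, fewer cells of a type and less RNA per cell cannot be told apart, and the part that cell content plays in the values of these genes was not tested.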

How the data were processed

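Per the labels' protocols, RNA from a miRNeasy preparation was hybridised to Affymetrix arrays after biotin labelling. What the authors deposited is a table of log2 signals, with 65535 probe sets and 7 arrays; RMA and Partek 6.6 are named in the submitters' processing notes without their roles, and the values (2.71 to 13.5) show the log2 scale. The sources used here give no build, probe alignment or filter. A single gene symbol was annotated for 53644 probe sets and several for 877, and 11014 are unnamed here. Symbols were updated through the RefSeq table (4321 current, 698 updated, 13 unmatched), giving 5017 genes, 4918 of them on chromosomes 1, 10, 11, 12 and 13, and all 5017 were tested. A gene was read at its brightest probe set (highest mean of 7 arrays), and dim genes were kept.

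Groups came from the labels, and replicate numbers are names only. Nothing says that arrays are separate animals; p-values cover only the spread among these arrays, possibly technical, and the number of arrays limits the precision. The groups were compared with limma 3.58.1 in R 4.3.3 (lmFit, then eBayes; two-sided p-values, adjusted by Benjamini-Hochberg over every gene or probe set; threshold 0.05). The deposited arrays still differ in median, and quantile normalization, which RMA includes, would remove a difference in total RNA. The genes and lists were chosen with earlier results of these data known. Genes are named by this rule: all 10 genes, Dicer1, up to 4 genes per pathway list with the smallest p, the 3 genes most correlated with each called gene, and the extreme probe sets of each gene. Dusp14, Grb2, Elk4, Ier5, Kcnj13, Nr2e1, Pmel and the other markers were named after their values were seen. The code was tested on simulated data of the same size, where the within-gene F test made 252 calls for 200 changed genes. Alternatives are given in the closing section, and averaging probe sets with control 4 left out was chosen after seeing the data. Figures used Python 3.11.15 and matplotlib 3.10.9.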

Additional observations from a re-analysis of the deposited data

Results flagged for a closer look

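The closer look took 51 sets of 4 control signals: the 10 genes, their extreme probe sets, Dicer1 and the named pathway genes. In 6 sets 1 array lay farther from the other 3 than Dixon's 95% critical value for the gap over the range. That value flags about 1 in 20 independent sets. These sets share arrays, and the extreme probe sets were picked by their fold change in the same arrays, so the rate is no yardstick here. In all 6 the array was control 4. It was the lowest control at Frs2 probe set 10372621 (7.61 against 9.18 to 9.31, ratio 0.924), at Frs2 probe set 10372623 (6.44 against 6.79 to 6.86, ratio 0.847), at Flrt2 (9.83 against 10.03 to 10.06, ratio 0.862) and at Elk3 (9.81 against 9.94 to 9.97, ratio 0.843). It was the highest at Fgf18 (9.32 against 8.20 to 8.30, ratio 0.910) and at Dusp3 (9.67 against 9.51 to 9.52, ratio 0.911). None of the 10 genes was flagged at its brightest probe set.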

How the results depend on the processing

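With 15 to 17 alternatives per gene, no called gene changed direction. Etv1 and Frs2 passed in none and kept their direction. The count of all genes called, 117, was 294 on the mean of probe sets, 265 on the mean of probe sets above the median signal, 176 on the median of probe sets, 853 on the same mean when control 4 was dropped, 385 with array weights, and 33 to 260 with 1 array left out. Genes called among the 10 were 1 on the median and with limma-trend, 5 on the mean without control 4, and 0 to 3 with 1 array left out. Other pathway genes called were 4 on either mean and with array weights, 3 on the median, 1 with dim genes left out or limma-trend, and 6 on the mean without control 4. Probe sets of the 10 genes called were 2 after quantile normalization again, 3 with dim ones left out, and 0 to 2 with 1 array left out.

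Fgf11 did not pass on the median (-0.20) or with limma-trend (-0.70, adjusted p = 0.0621), and lay at -0.76 to -0.61 with 1 array left out, Etv5 at -0.94 to -0.78. Dusp6 passed with array weights (-0.48), on the mean without control 4 (-0.64), and lay at -0.51 to -0.33 with 1 array left out. Spred2 (-0.25) and Egfr (-0.28) passed on the mean without control 4. Values that changed sign, none past the test, were Etv4 with array weights (7.6e-05) and left-out arrays (-0.28 to 0.018), Nf1 after quantile normalization (0.033), and Fgfr4 on either mean (-0.030 and -0.12), after quantile normalization (-0.021), median centring (-0.0075) and left-out arrays (-0.12 to 0.24). Dicer1 changed sign on the mean of brighter probe sets (0.018), the median (0.29) and left-out arrays (-0.17 to 0.034).

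Of 387 values of the 23 other named pathway genes, 335 kept their direction and side of the threshold, 23 passed where the main value had not, and 29 changed sign: on the mean Egr2 (0.10), Lrig3 (-0.010), Fgf22 (-0.11), Shc2 (-0.12) and Crk (0.052), on the mean of brighter probe sets Lrig3 (-0.010), Shc2 (-0.11) and Crk (0.052), on the median Erbb2 (0.10), Egr2 (0.23), Lrig3 (-0.020), Fgf22 (-0.15), Ksr1 (-0.025) and Crk (0.055), after quantile normalization Fgf22 (-0.0042), with array weights Fos (0.088) and Fgf18 (0.050), and on the mean without control 4 Egr2 (0.039), Fos (0.049), Lrig3 (-0.12), Fgf22 (-0.0041), Rasal2 (-0.053) and Shc2 (-0.13). With 1 array left out the ranges were -1.40 to 0.48 for Fos, -0.28 to 0.10 for Fgf18, -0.12 to 0.24 for Fgf22 and -0.23 to 0.011 for Map2k2. The cause of these changes was not tested. No paired analysis was possible because the labels give no replicate numbers. Signal near the median of all probe sets limits Etv4, Fgfr4, most Fgf11 probe sets and the Dicer1-deficient values of Etv5.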
